A study of Anas platyrhynchos x Cairina moschata with 205 samples.

Results

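ELP3 was 1 of the 86 target genes measured by quantitative PCR in the livers of mule duck embryos (Anas platyrhynchos x Cairina moschata), and its row was taken by its symbol. The Ct table also holds a shorter second set of gene names in an order of its own, which gives HK1 at this row, so the identity of ELP3 rests on the symbol column. It was chosen by its measured differences between thermally manipulated (TM) and control livers, which had opposite signs at embryonic day 20 (E20) and E24. The values at these 2 points are therefore given as a description, without a test, and support nothing by themselves. The other 11 sampling points, the age steps between them and the relation with the HSP70 genes were not used in the choice. In the second trial, the order of group means, the likeness to other genes and some age steps include E20 or E24.

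All eggs were of genotype H85 and were incubated alike until E13. The TM incubators were then warmed for part of each day until before E28, while the control incubators stayed at the usual temperature. In the first trial, livers were taken on E13 at 7 points, the earliest 30 min and the latest 7 h into the first warming, and every hour between 1 h and 5 h. In the second trial, they were taken at E12, before any warming, at E16, E20 and E24, 1 h after the daily rise, at E28, after the last one, and at hatching (E30). The labels of E12 and E28 also read 1 h after a rise of temperature, so the timing of these 2 points rests on the dates of warming in the study's methods. Each group held 8 livers at a point, except for 5 control livers at E16. At each point the control livers came from 1 incubator and the TM livers from another (in the second trial all eggs shared a hatchery from E28), so incubator and temperature cannot be told apart, and p-values reflect only how livers of a group vary.

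ELP3 encodes the catalytic subunit of the Elongator complex, known from yeast to mammals. It carries a histone acetyltransferase domain and a radical SAM domain. Elongator was first found with elongating RNA polymerase II, and is best known for modifying the wobble uridine of certain tRNAs, which sets how fast their codons are read. In human cells ELP3 has been tied to HSP70 gene expression through histone H3 acetylation, and HSP70 chaperones hold and refold proteins during heat stress. No sequence of the duck gene or of its primers was used here.

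Expression was read as Ct, the cycle at which the product crosses a threshold, and as a ratio to the average of the trial after correction for 4 reference genes. All values below are log2 of this ratio, so 1 unit is a doubling, and 0 is close to the average of the trial. The 2 trials had different reference genes and were not set against each other. ELP3 had a Ct in 198 of 204 livers and a deposited ratio in 194 of 205. Its median Ct was 21.6 cycles in the first trial and 20.7 in the second, later than the panel medians of 19.9 and 19.1. In 5 livers a Ct was listed but the ratio was blank. The values recomputed for them, 1.36 to 2.50, each lay above every deposited ratio of the same group, so the deposited means of these groups leave out a high recomputed value. In TM replicate 6 of 5 h and control replicate 6 of 7 h the reference luciferase came at 30.2 and 31.4 cycles, and a late reference raises the ratio. The latter liver gave the 2.50, at an ELP3 Ct of 22.0 cycles against a group mean of 21.8. Within groups, ELP3 scattered widely in the first trial, with a median SD of 1.19 against 0.70 for the panel (10 of 83 genes scattered more). In the second trial the median SD was 0.73 against 0.63 (33 of 83 genes scattered more). The hepatocyte markers ALB, HNF4 and CYP2C had a Ct in 201 to 204 livers, with ALB at a median of 7.88 cycles. In 2 livers, 1 control liver at E16 and 1 TM liver at E20, luciferase was the only reference with a Ct, and neither had an ELP3 value. Their ALB Ct was 23.7 and 22.5 cycles.

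**Figure D1:**
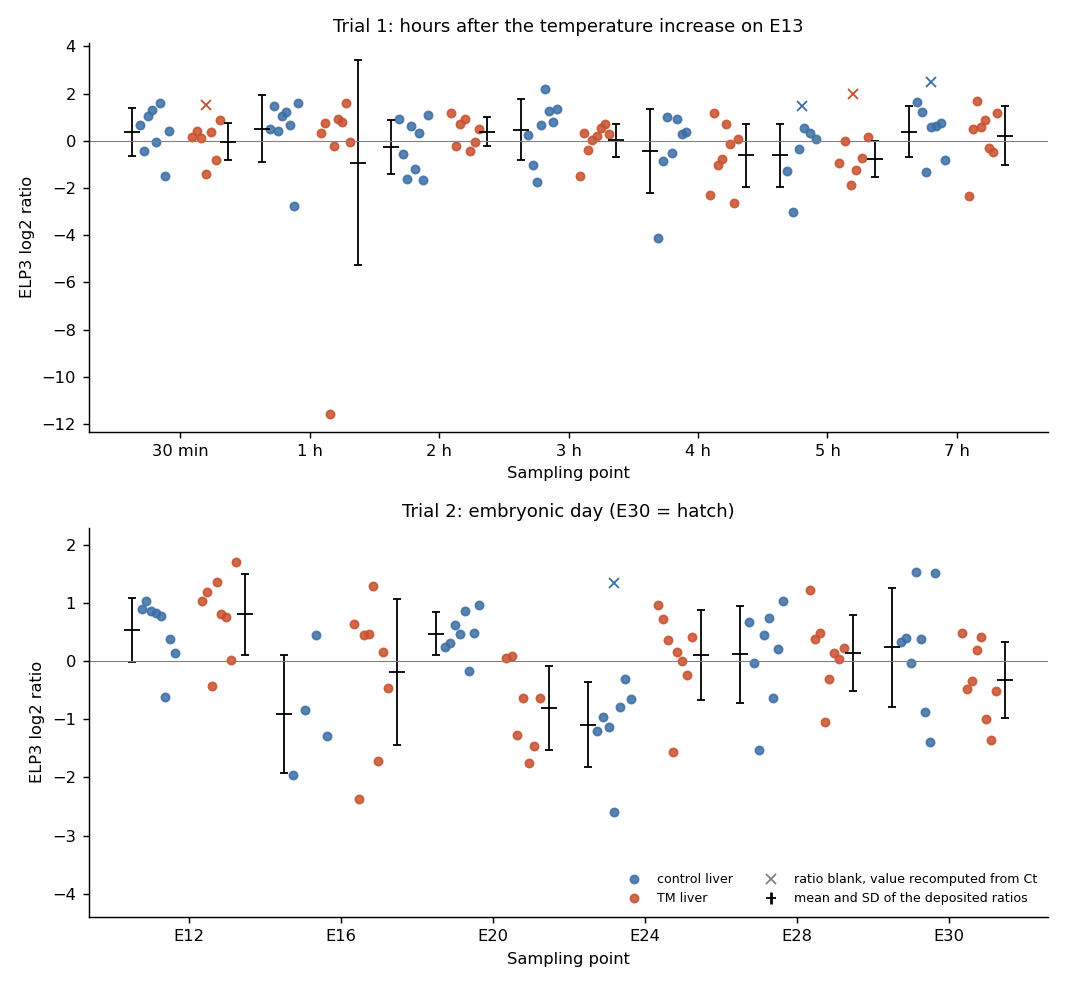
ELP3 log2 ratio (y axis) in each liver by sampling point (x axis), for the first trial (top) and the second trial (bottom). Dots are livers with a deposited ratio, bars are group means with SD, and crosses are the 5 livers whose ratio was blank and was recomputed from the Ct. Control dots at E20 sit between -0.17 and 0.98 and TM dots between -1.75 and 0.09, while at E24 the order is turned.

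At E20, ELP3 was lower in the TM group, and at E24 it was higher. The 8 control livers of E20 had 0.24, 0.32, 0.63, 0.48, 0.87, -0.17, 0.48 and 0.98, with a mean of 0.48 ± 0.37 (SD). The 7 TM livers with a value had 0.06, 0.09, -1.27, -0.64, -1.75, -1.46 and -0.63, with a mean of -0.80 ± 0.72. The TM livers thus lay lower by 1.28 on average, a 2.43-fold lower ratio, and the groups overlapped through 2 TM livers at 0.06 and 0.09 and 1 control liver at -0.17. Before any reference correction, the ELP3 Ct was 20.7 ± 0.77 cycles in the control group and 22.2 ± 0.61 in the TM group, 1.52 cycles later. In the same 15 livers the reference genes were 0.24 cycles later in the TM group (exact two-sided permutation p = 0.471).

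At E24, 7 control livers had -1.19, -0.96, -1.14, -2.60, -0.79, -0.30 and -0.64, with a mean of -1.09 ± 0.73 (SD). The 8 TM livers had 0.98, 0.73, 0.37, -1.55, 0.16, 0.00, -0.24 and 0.42, with a mean of 0.11 ± 0.77. The TM livers were higher by 1.20 on average, a 2.29-fold higher ratio. Every TM liver but replicate 4, at -1.55, lay above all 7 control livers. The eighth control liver (replicate 4) had an ELP3 Ct of 20.1 cycles but a blank ratio, like 25 of its target genes that had a Ct. Its recomputed value of 1.36 was above every TM liver, and with it the difference was 0.89. Control replicate 5, at -2.60, stood apart at the other end, and without it the difference was 0.94. In raw Ct over all 16 livers the TM group was ahead by 0.53 cycles (21.3 ± 1.16 against 20.7 ± 0.50), while its reference genes were 0.36 cycles later (exact permutation p = 0.206).

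ELP3 stood out in the panel for this turn, as its choice implies. Of 76 genes with a value at both points, 36 had opposite signs, and ELP3 was the one gene that reached 1 unit at both. The nearest others, named after their values were seen, were ALDH3A2, an aldehyde dehydrogenase, at -0.79 and 1.49, and the cytokine gene TGFb1, at -1.69 and 0.76. The median difference over all genes tested was 0.08 at E20 and 0.07 at E24. The share of genes past an exact permutation p of 0.05 was 10.0% at each of these points.

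**Figure D2:**
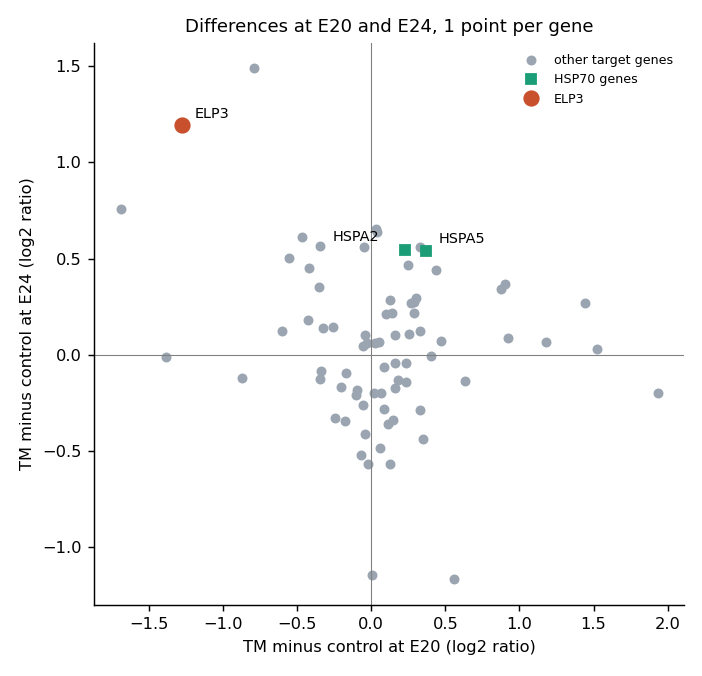
Difference between TM and control livers in log2 ratio at E20 (x axis) and at E24 (y axis), 1 point for each of 76 target genes. ELP3 (-1.28 and 1.20) lies in the upper left quadrant, and the HSP70 genes HSPA2 and HSPA5 lie in the upper right one.

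Markers of liver cell types differed in part at E20. Over all livers 0 of 3 hepatocyte markers passed the exact permutation test, and their mean level ranged from -0.17 to 0.95 in control livers and from -12.98 to 0.80 in TM livers. A mean level was taken in each liver over the markers with a value there, so livers can rest on different markers. The lowest TM liver was the one without an ELP3 value, and its level was its ALB value alone. Among livers with an ELP3 value the TM range was 0.13 to 0.80, and ALB was higher in the TM group by 0.38 (n = 7 each, exact permutation p = 0.0163). Of 3 markers of non-parenchymal cells tested, HGF, a hepatocyte growth factor made by stellate and endothelial cells, was higher in the TM group by 0.96 (exact permutation p = 0.0109), and IL18, a cytokine of macrophages, by 1.93 (p = 0.0117, and by 1.70 with p = 0.0216 among livers with an ELP3 value). Their adjusted p was 0.157 each (limma, Benjamini-Hochberg over 80 genes). The third marker, TGFb1, went the other way, by -1.69, and did not pass the exact test. The mean level of the non-parenchymal markers ranged from -1.07 to 1.59 in control livers and from -1.54 to 2.36 in TM livers. At E24, 0 of 3 hepatocyte and 0 of 2 non-parenchymal markers tested passed. The mean level of the non-parenchymal markers ranged from -1.26 to 0.84 in control and from -1.22 to 1.34 in TM livers, and that of the hepatocyte markers from -1.03 to 0.97 and from -0.31 to 0.45. Their part in the ELP3 values was not tested, and in whole livers fewer cells of a type and less RNA per cell cannot be told apart.

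The steps of the ELP3 mean around E20 and E24 are given for each group as a description, without a test. The E16 control mean rests on 4 livers. The E24 control mean leaves out replicate 4, whose ratio was blank and was recomputed as 1.36. In control livers the ELP3 mean rose by 1.38 from E16 to E20, dropped by 1.57 from E20 to E24 and rose by 1.21 to E28. In TM livers it dropped by 0.61, rose by 0.91 and moved by 0.04 over the same steps.

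At none of the 11 other points did the difference in ELP3 between TM and control livers pass the test (exact two-sided permutation test, 0 of 11 points at p under 0.05, smallest p = 0.209). Over the same points 10.6% of all gene tests passed, from 7.41% at E12, 17.3% at E16, 9.76% at E28 and 9.52% at E30 to 7.69% at 30 min, 10.5% at 1 h, 6.49% at 2 h, 13.3% at 3 h, 5.33% at 4 h, 14.3% at 5 h and 14.7% at 7 h. With limma the adjusted p for ELP3 lay between 0.513 and 0.992, and 0 points had an unadjusted p under 0.05 (0.00% of all gene tests had an adjusted p under 0.05). At E12, before the treatment by the study's dates, control livers ranged from -0.62 to 1.04 (median 0.80) and TM livers from -0.42 to 1.71 (median 0.93). The TM mean was higher by 0.27 ± 0.32 (SE), within the spread between livers (n = 8 each, exact permutation p = 0.403). In TM replicates 2 and 8 of E12 the reference luciferase came late, at 27.8 and 28.9 cycles. Their ELP3 was 1.19 and 1.71, against -0.30 and 0.26 centred on the panel. Both livers enter every TM step and contrast from E12 below, and no run left them out.

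At E16, the 4 control livers with a value had -1.95, -0.83, 0.45 and -1.29. The 8 TM livers ranged from -2.38 to 1.30, with a median of 0.31. The difference of 0.72 ± 0.66 (SE) did not pass (exact permutation p = 0.343), and the median difference over all genes tested at this point was 0.53. Relative to the panel, the ELP3 difference was 0.26. For this each liver was centred on the genes with a value in every liver of its point. ALB was higher in TM livers at E16 by 4.15 (n = 4 and 8, exact permutation p = 0.0101, adjusted p = 0.228 with limma), and the mean level of the hepatocyte markers by 2.78 (exact permutation p = 0.0474). The lowest control liver, at -12.56, was the one without an ELP3 value, and its level was its ALB value alone. Among livers with an ELP3 value, ALB was higher by 1.15 (n = 3 and 8, exact permutation p = 0.0485) and the hepatocyte level by 0.35 (n = 4 and 8, p = 0.242). Their part in the ELP3 values of E16, on which the age step from E12 also rests, was not tested.

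At E28, ELP3 was alike in mean in both groups, with control livers from -1.52 to 1.04 (median 0.33) and TM livers from -1.04 to 1.23 (median 0.19). The difference was 0.03 ± 0.36 (SE, n = 8 each, exact permutation p = 0.945). At hatching, control livers ranged from -1.38 to 1.55 (median 0.36) and TM livers from -1.36 to 0.50 (median -0.41). The TM mean lay 0.56 ± 0.41 (SE) lower, which did not pass (n = 8 each, exact permutation p = 0.216). At this point 1 of 3 non-parenchymal markers tested, IL18, was higher in TM livers, by 1.58 (exact permutation p = 0.0247, adjusted p = 0.353 with limma), where 9.52% of all genes passed the exact test. The mean level of these markers was higher by 1.09 (exact permutation p = 0.00326), and ranged from -2.62 to -0.72 in control livers and from -1.23 to 0.71 in TM livers. This level was taken over the markers with a value in each liver, and not every liver had all of them. HGF alone differed by 0.35 (n = 7 and 6, exact permutation p = 0.604). Their part in the ELP3 value was not tested.

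Over the first 7 h of warming, ELP3 gave no difference past the test at any of 7 points. At 30 min, control livers ranged from -1.49 to 1.61 (median 0.53) and TM livers from -1.42 to 0.88 (median 0.15), a difference of -0.42 ± 0.45 (SE, exact permutation p = 0.390). At 1 h, control livers ranged from -2.78 to 1.59 (median 0.86) and TM livers from -11.57 to 1.59 (median 0.54). The value of -11.57 belonged to TM replicate 3, with an ELP3 Ct of 33.5, above the 30 cycles that the labels give for the run, while its other genes had a median Ct of 19.9. With it the difference was -1.45 ± 1.45 (SE, exact permutation p = 0.512), and without it 0.07 (p = 0.946).

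At 2 h, control livers ranged from -1.66 to 1.08 (median -0.11) and TM livers from -0.42 to 1.19 (median 0.49). The difference was 0.63 ± 0.45 (SE), the most positive of the hourly points, and did not pass on the deposited ratios (n = 8 and 7, exact permutation p = 0.209). Centred on the panel it was 0.84, with an exact permutation p of 0.0399 and an adjusted p of 0.338 (limma). At 3 h, control livers ranged from -1.74 to 2.20 (median 0.73) and TM livers from -1.47 to 0.71 (median 0.24), a difference of -0.45 (exact permutation p = 0.403).

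At the last 3 hourly points the ELP3 means of both groups lay within 0.20 of each other. At 4 h, control livers ranged from -4.14 to 1.01 (median 0.29) and TM livers from -2.62 to 1.18 (median -0.47). At 5 h, the 6 control livers ranged from -3.01 to 0.55 (median -0.13) and the 6 TM livers from -1.86 to 0.15 (median -0.83). At 7 h, control livers ranged from -1.34 to 1.63 (median 0.63) and TM livers from -2.33 to 1.67 (median 0.54). The differences of -0.19, -0.15 and -0.18 had exact permutation p-values of 0.821, 0.820 and 0.777. At 7 h the mean of the reference genes was 1.14 cycles earlier in TM livers (exact permutation p = 0.00544), the one point of 13 that passed, with luciferase 2.66 cycles earlier (p = 0.0247). These values include control replicate 6, with a reference mean of 21.1 cycles and luciferase at 31.4. It had no deposited ELP3 ratio and is not in the ELP3 difference of -0.18. At 30 min STAB1 was 1.27 cycles earlier (exact permutation p = 0.00202). The ELP3 difference at 7 h lay between -0.91 with luciferase alone and 0.23 with USP9X alone.

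**Figure D3:**
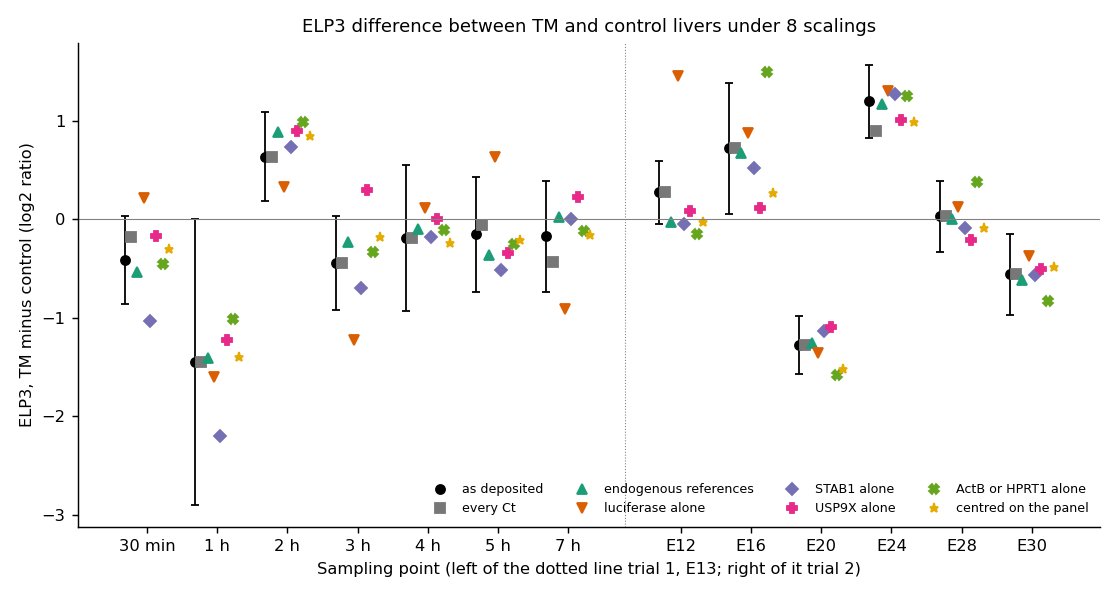
Difference in ELP3 between TM and control livers (y axis, log2 ratio) at the 13 sampling points (x axis) under 8 ways of scaling. The livers differ in part, since every Ct adds the 5 livers with a blank ratio and a liver without the needed Ct is left out. Black dots are the deposited ratios, with bars of 1 SE. All 8 scalings were below 0 at E20 (-1.59 to -1.10) and above 0 at E24 (0.89 to 1.30), the 2 points for which ELP3 was chosen. At 7 of the other points they fell on both sides of 0.

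With each reference gene alone, with the endogenous genes only, with every Ct or centred on the panel, the ELP3 difference lay between -1.59 and -1.10 at E20 and between 0.89 and 1.30 at E24, where ELP3 was chosen for its large differences. The 0.89 came with every Ct, which added the control liver with a blank ratio. Among the 11 other points all 8 scalings had 1 sign at 1 h, 2 h, E16 and E30, and at the remaining 7 the sign depended on the scaling. At 1 h all 8 include TM replicate 3, at -11.57, and without this liver the difference on the deposited ratios had the other sign.

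Against E12, the change of the TM effect was 0.44 ± 0.63 (SE) at E16, -0.25 ± 0.56 at E28 and -0.83 ± 0.56 at E30. None passed (limma interaction contrasts, adjusted p = 0.738, 0.939 and 0.521), where 1.18%, 0.00% and 1.18% of 85 genes did. These contrasts share the livers of E12. The same contrast was -1.55 at E20 and 0.92 at E24, given without a test.

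With age, ELP3 was lower at E16 than at E12 in control livers by 1.45 (n = 4 and 8, exact permutation p = 0.0101), a step at which 30.4% of genes passed and the median over all genes was -0.55. Its adjusted p was 0.128 (limma, 0.00% of genes passed). In TM livers the same step was -1.0 (n = 8 each, exact permutation p = 0.0681, median over all genes -0.31, 9.88% of genes passed). From E12 to hatching ELP3 was lower in TM livers by 1.13 (n = 8 each, exact permutation p = 0.00622, adjusted p = 0.00688 with limma). At that step 65.1% of genes passed the exact test and 61.4% limma, and the median over all genes was -0.78. In control livers the step was -0.30 (exact permutation p = 0.482, 54.9% of genes passed). Without luciferase among the references this TM step from E12 to hatching was -0.67 (exact permutation p = 0.0533), and the call was lost. From E28 to hatching ELP3 moved by 0.12 in control livers (exact permutation p = 0.799, 35.7% of genes passed) and by -0.47 in TM livers (p = 0.177, 41.0% of genes passed). Of 10 steps tested, 2 passed at an unadjusted exact p under 0.05 and 0 after adjustment over the 10 steps (smallest 0.0505). Between 30 min and 7 h, ELP3 moved by 0.01 in control livers and 0.25 in TM livers, and between 1 h and 5 h by -1.13 and 0.16, of which none passed (smallest exact permutation p = 0.163). At these 4 steps 16.4%, 11.4%, 5.13% and 6.49% of genes passed. The TM mean of 1 h held replicate 3, at -11.57. The TM medians were 0.54 at 1 h and -0.83 at 5 h, and the step was not run without this liver.

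Ordered by mean, the ELP3 groups of the second trial ran from E12 TM (0.81), E12 control (0.54) and E20 control (0.48) down to E20 TM (-0.80), E16 control (-0.91) and E24 control (-1.09). The widest gap between neighbours in this order, 0.48 between E30 TM (-0.32) and E20 TM, was 0.69 of their pooled SD, so no neighbour differed beyond its spread. In the first trial the means ran from 0.52 in control livers to -0.93 in TM livers, both at 1 h, and no gap between neighbours exceeded 0.22. The lowest mean held TM replicate 3, at -11.57, while the median of its group was 0.54.

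The genes whose group means were most like those of ELP3 in the second trial were TUBA1C, an alpha-tubulin (Pearson r = 0.78 over 12 group means), SLC16A10, a transporter of aromatic amino acids and thyroid hormone (r = 0.77), and the mitochondrial co-chaperonin gene Hsp10 (r = 0.64). The median over 82 genes was 0.25. These 12 group means include those of E20 and E24, for which ELP3 was chosen, so this ranking is a description. It was not computed without them. In the first trial they were the heat shock factor gene HSF2 (r = 0.54 over 14 group means), the 5-methylcytosine dioxygenase gene TET1 (r = 0.48) and the histone demethylase-like gene JMJD1C (r = 0.43), with a median over 82 genes of 0.06. All these group means share the reference Ct of their livers, and no gene was among the 3 most like ELP3 in both trials. Those of the first trial include the 1 h TM mean with replicate 3 at -11.57, and r was not computed without this liver. HSPA5 had r = 0.14 and 0.44 in the first and second trial, and HSPA2 r = 0.39 and -0.08. With the livers centred on the panel, TET1, TUBA1C and SLC16A10 were still among the 3 most like ELP3 and the others were not, and HSPA5 had r = 0.09 and 0.08 and HSPA2 r = 0.36 and -0.24.

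The HSP70 genes kept 1 sign at E20 and E24. HSPA5, the endoplasmic reticulum HSP70, was higher in TM livers at E20, with -0.64 ± 0.29 against -1.01 ± 0.28 (SD, n = 7 each, exact permutation p = 0.0303). It was higher at E24 too, with -0.65 ± 0.38 against -1.19 ± 0.49 (n = 8 each, exact permutation p = 0.0250). Its adjusted p was 0.561 and 0.442 (limma), and the E20 call was lost when the livers were centred on the panel (exact permutation p = 0.707). HSPA2, an HSP70 of the cytosol, differed by 0.23 at E20 (n = 7 and 8, exact permutation p = 0.664) and by 0.54 at E24 (n = 8 and 7, p = 0.0699). HSPA2 passed as lower in TM livers at 1 h, by 2.00 (n = 8 each, exact permutation p = 0.00342, adjusted p = 0.0656 with limma), and at hatching, by 0.78 (p = 0.0356, adjusted p = 0.583). ELP3 passed at neither point. At 2 h HSPA2 was lower by 1.86 (n = 8 and 7, exact permutation p = 0.0505, adjusted p = 0.395 with limma) and ELP3 was higher by 0.63, and neither passed on the deposited ratios.

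Across the livers of a group, no relation of ELP3 with either gene passed after adjustment. With HSPA2, r was positive in 15 of 24 groups with at least 6 livers and ranged from -0.88 to 0.86. With HSPA5, r was positive in 18 of 25 groups and ranged from -0.44 to 0.91. Together with 4 values pooled within groups these made 53 relations, of which 0 passed after Benjamini-Hochberg adjustment (smallest adjusted p = 0.258, exact permutation of pairings). The highest, with HSPA5 at 30 min in TM livers (n = 7, r = 0.91, rho = 0.68, exact permutation p = 0.00972), was 0.19 without the 2 livers farthest in ELP3. The lowest, with HSPA2 at 2 h in control livers (n = 8, r = -0.88, rho = -0.83, exact permutation p = 0.00786), was -0.81 without them. Leaving out those 2 livers kept the sign in 17 of 24 and 17 of 25 groups.

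**Figure D4:**
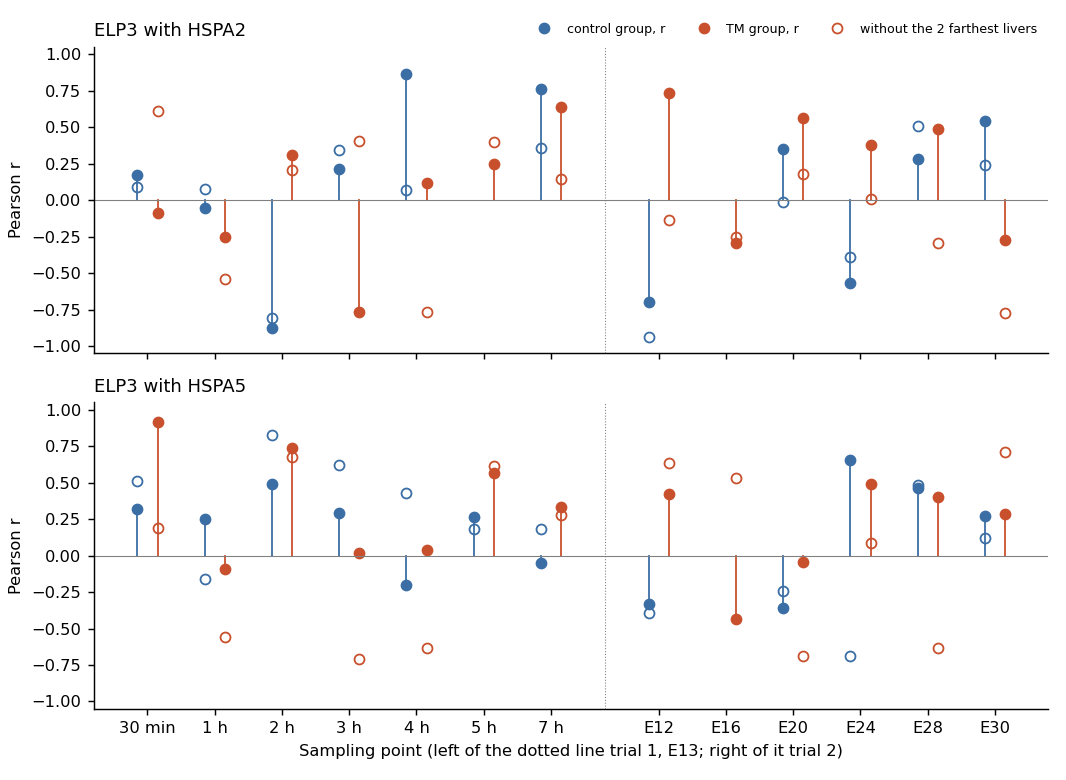
Pearson r (y axis) of ELP3 with HSPA2 (top) and HSPA5 (bottom) across the livers of each group by sampling point (x axis). Filled dots are all livers with both values, and open dots are the same without the 2 livers farthest from the group median of ELP3. Values fall on both sides of 0 in both panels, from -0.88 to 0.86 with HSPA2 and from -0.44 to 0.91 with HSPA5.

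Pooled within groups, r with HSPA5 was 0.26 in the second trial (85 livers, 12 groups, permutation p = 0.0236, adjusted p = 0.417, rho = 0.22). In the first trial it was 0.13 (102 livers, permutation p = 0.199), with rho = 0.26 (permutation p = 0.0174, adjusted p = 0.461). Without the 2 livers farthest in ELP3, r was 0.32 in the second trial and 0.27 in the first (permutation p = 0.00833 and 0.009, unadjusted). Without the ELP3 Ct above 30 cycles, the first-trial r was 0.21 (permutation p = 0.0383, adjusted p = 0.385). With HSPA2 the pooled r was -0.06 in the second trial (86 livers, permutation p = 0.624, rho = 0.14) and 0.05 in the first (97 livers, permutation p = 0.558, rho = 0.11), and -0.02 and 0.05 without the 2 farthest. All ratios of a liver share its reference Ct. ELP3 had a median r with the other 85 genes of 0.18 and 0.13 in the second and first trial (0.08 and -0.01 when centred on the panel), and 16 and 46 of these genes had a higher r with ELP3 than HSPA5 had. Centred on the panel, r with HSPA5 was 0.23 in the second trial (permutation p = 0.0496, adjusted p = 0.368), with 6 genes higher. In the first it was -0.11, with 72 genes higher.

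Among 8 other genes that write, read or erase chromatin marks, the share of calls at the hourly points was near that of all genes. Over these 7 points, 3 of 56 tests were higher and 3 lower in TM livers, 10.7% in all (over all genes 10.3% of tests passed, 3.19% higher and 7.13% lower). TET2, which oxidises 5-methylcytosine, was higher at 30 min and 4 h. RBBP4, a histone chaperone of several repressive complexes, was higher at 5 h. SETDB1, which methylates histone H3, was lower at 1 h and 4 h, and the deacetylase gene HDAC1 was lower at 3 h. Over the 6 daily points 1 of 47 tests passed, TET2 at E28, lower by 0.83 (n = 8 and 7, exact permutation p = 0.0396), where 10.7% of all gene tests passed, 8.61% higher and 2.05% lower. The median difference of the 8 genes was -0.05 at E20 and 0.06 at E24, and HDAC1, whose product removes acetyl groups from histones, differed by -0.43 (exact permutation p = 0.192) and 0.18 (p = 0.653).

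TYMS, thymidylate synthase, was higher in TM livers at E20 by 0.92 (n = 8 and 7, exact permutation p = 0.0121, adjusted p = 0.200 with limma), a call lost when the livers were centred on the panel (exact permutation p = 0.145). USP16, a histone H2A deubiquitinase, was lower at 2 h, 5 h and 7 h, by 0.64 to 0.83, and higher at E12 by 0.83. Of the 12 heat shock genes, 3 of 80 hourly tests were higher and 9 lower (15% against 10.3% over all genes), and 6 of 71 daily tests were higher and 3 lower (12.7% against 10.7%). Besides HSPA5, HSP90AA1, the cytosolic HSP90, was higher at E20 and E24, by 0.44 each, and the co-chaperone gene DNAJB12 was lower at E24 by 1.14. None of these genes had an adjusted p under 0.05 at any point.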

How the data were processed

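The authors extracted total RNA from whole livers, reverse transcribed it with added luciferase RNA and ran EvaGreen PCR on Fluidigm chips, with R 3.6.2 per the labels. The deposited values are Ct (other), and ratios (2 to the power of minus ∆∆Ct) against the average Ct of 4 reference genes, namely ActB, luciferase, STAB1 and USP9X in the first trial, with HPRT1 in place of ActB in the second. These ratios were recovered from the Ct for 9346 of 9346 and 7969 of 7969 values (tolerance 0.001 in log2), with fewer references where a liver lacked one. The average was taken as the geometric mean of the reference Ct, here and where reference Ct were compared. A second set of names in the Ct table, on 55 of 92 rows, matched the symbols in 3 rows and was not used, since the references named by the symbols recover the ratios and the row with the symbol ALB has the lowest median Ct. The ratio table gives row numbers only. The depth is given by the Ct.

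Log2 ratios were used without a pseudocount, for 86 target genes with at least 6 livers per group (4 at E16). TM was compared with control at each point by exact two-sided permutation of the mean difference, at an unadjusted p under 0.05, and by limma 3.58.1 (R 4.3.3), which was tested on simulated data. Correlations used permuted pairings, 100000 draws where pooled. All else was computed in Python 3.11.15 (scipy 1.17.1, pandas 2.3.3, numpy 2.4.6). The genes named are ELP3, HSPA2, HSPA5, those of the epigenetics and heat shock lists with TYMS and USP16 that make up a count, and the 3 most like ELP3 in group means. The gene and the lists were chosen with earlier results of these data known. The alternatives were other references, centring on the panel, every Ct, 3 livers per group, the replicate block, 1 fit per trial, the methods' test and livers left out. Centring used the genes with a value in every liver of a point, 8 to 51 by point. Centred steps between points and centred group means thus rest on different sets of genes. Replicate numbers were not taken to pair the livers in the main tests.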

Additional observations from a re-analysis of the deposited data

Results flagged for a closer look

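In 4 of 26 groups, 1 liver lay far from the others in ELP3 log2 ratio, by a threshold (Dixon's) that flags about 1 in 20 groups of normally distributed values by chance. At 1 h of E13, control replicate 7 was at -2.78, with the next liver at 0.41 and an ELP3 Ct of 24.2. At the same point, TM replicate 3 was at -11.57, with the next liver at -0.23 and a Ct of 33.5. At 4 h, control replicate 1 was at -4.14, with the next at -0.87 and a Ct of 26.4. At E24, control replicate 5 was at -2.60, with the next at -1.19 and a Ct of 23.8. All 4 stood at the low end of their group. Without both livers at 1 h the ELP3 difference was -0.40 (n = 7 each, exact permutation p = 0.197).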

How the results depend on the processing

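ELP3 at E20 and E24 kept its sign in every alternative run, from -1.43 to -1.12 and from 0.94 to 1.43 with each liver left out in turn. As ELP3 was chosen for its differences at these 2 points, a kept sign there is no support. At E16 it ran from 0.37 to 1.17 with each control liver left out, and the step from E12 to E16 in control livers from -1.90 to -1.10 (exact permutation p between 0.00606 and 0.0303). The ELP3 difference, none past the test, turned sign with luciferase alone at 30 min (0.21), 4 h (0.11) and 5 h (0.63), with USP9X alone at 3 h (0.29), 7 h (0.23) and E28 (-0.21), with STAB1 alone at 7 h (0.0040), E12 (-0.052) and E28 (-0.089), with HPRT1 alone at E12 (-0.15), and with the endogenous genes at 7 h (0.018), E12 (-0.033) and E28 (-0.00084). Centred on the panel it turned at E12 (-0.027) and E28 (-0.094) and passed at 2 h (0.84), and without Ct above 30 it turned at 1 h (0.070). In the methods' test on the ratios it turned at E28 (-0.023). With the endogenous genes the change of the TM effect at E28 was 0.032, the step from 30 min to 7 h in control livers -0.16, that from E12 to E30 in TM livers lost its call (-0.67), and the pooled r with HSPA2 in the second trial was 0.0094. Centred on the panel, the step from E28 to E30 was -0.37 in control livers and passed in TM livers (-0.76), and the pooled r with HSPA5 in the first trial was -0.11. Calls in the epigenetics list at the daily points were 0 with every Ct, 2 with the endogenous genes and 5 centred on the panel, against 1. Those in the heat shock list were 7 with every Ct at the hourly points, against 12, and 5 with every Ct and 5 centred on the panel at the daily points, against 9. The share of all gene tests past the exact test was not computed under these alternatives. The counts of both lists are therefore no result about their genes. The causes were not tested.

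With the replicate block, ELP3 differed by -1.31 at E20 and 1.43 at E24 and passed at none of the 11 other points. At no point was every correlation between livers of the same number above 0.1, a check that cannot exclude a weaker or partial pairing. The number of livers, 4 to 8 per group, and an ELP3 SD near 1 limit what could be seen.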
